A study of Capra hircus with 12 samples.

Results

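The miRNAs miR-26a and miR-26b were followed through the annual cashmere cycle in secondary hair follicles (SHFs), the small follicles from which the cashmere fibre grows. They were chosen by name alone, as every listed goat miRNA called miR-26a or miR-26b, and both arms of each were listed, so 4 of the 376 miRNAs belong to this group: chi-miR-26a-5p, chi-miR-26a-3p, chi-miR-26b-5p and chi-miR-26b-3p. Small RNA was sequenced from SHFs cut out of scapular skin of Liaoning cashmere goats, all 1.5 years old, as 1 female and 1 male library in each of 6 months. February and March represented telogen (the resting phase, 4 libraries), May and September anagen (the growth phase, early in May and mid-phase in September by the study's naming, 2 libraries each), and November and December catagen (the regression phase, 4 libraries). The methods name 3 female and 3 male goats per time point but not how they were combined into libraries, and the labels name no batch. The libraries held 3135292 to 5788032 counts, at which a floor of 3 counts equals 0.518 to 0.957 TPM, which here is the count divided by the library total and multiplied by 1000000.

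miRNAs are short RNAs that bind mRNAs mostly through a seed near their 5′ end and lower their stability or translation. The mature 5p strands of miR-26a and miR-26b share a seed and so have largely the same predicted targets, and among those known in mammals are EZH2, the methyltransferase of Polycomb repressive complex 2, and SMAD1, which carries BMP signals. The genes of both miRNAs lie inside genes of small phosphatases that act on RNA polymerase II. In the RefSeq genes of goat assembly ARS1.2, MIR26A lies within CTDSPL and MIR26B within CTDSP1, each has 1 entry, and 0 other miRNA genes lie within 10 kb of either. Human and mouse carry a further miR-26a gene, which makes the same 5p strand but another 3p strand. How the authors assigned reads that match both 5p strands is not given in the sources used here, so the division of reads between miR-26a-5p and miR-26b-5p is uncertain to that extent.

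miR-26a-5p held rank 1 in all 12 libraries, with 13.4% to 19.6% of all counts. In telogen its TPM was 191721 (female) and 162143 (male) in February and 194145 and 135136 in March, and in May it was 141194 (female) and 134222 (male). In September it was 166727 (female) and 146425 (male), and in catagen it was 183926 and 196381 in November and 168447 and 194919 in December. The May libraries and the male March library were thus the 3 lowest, and the 4 catagen libraries lay above both libraries of May and of September, while telogen spanned nearly the whole range. The means were 137708 ± 4930 (SD, n = 2) in May, 156576 ± 14356 (n = 2) in September, 170786 ± 27866 (n = 4) in telogen and 185919 ± 12906 (n = 4) in catagen, and the neighbours September and telogen, as well as telogen and catagen, differed by less than the SD of telogen. Counting error was negligible for so abundant a miRNA (95% Wilson interval of its share 13.4% to 13.5% in the male May library), so the spread between libraries set the precision.

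The miRNA that came after it differed between libraries. It was miR-27b-3p in 7 libraries, miR-148a-3p in 3, miR-143-3p in the male February library and miR-21-5p in the female March library. miR-26a-5p exceeded it by 1.24-fold in the female September library, where miR-148a-3p took 13.5% of counts, and by 2.04-fold in the female March library. Among the 25 miRNAs with a mean TPM above 5000, miR-26a-5p had the 9th lowest coefficient of variation over the 12 libraries, 14.4%, where the median of the 25 was 17.7%. On the TMM scale described below the order differed, with a coefficient of variation of 26.9% (the 20th lowest) against a median of 21.2%.

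miR-26b-5p held ranks 14 to 19, with a mean TPM of 11783 ± 2273 (SD, n = 12). Its TPM in telogen was 14681 (female) and 15018 (male) in February and 16053 and 11406 in March, and in May it was 10702 and 9872. In September it was 9462 (female) and 10700 (male), and in catagen it was 10023 and 11978 in November and 9540 and 11955 in December. Here 3 of the 4 telogen libraries lay above all others, and the male March library fell among the catagen values. The means stood in the order September (10081 ± 875), May (10287 ± 587), catagen (10874 ± 1276) and telogen (14290 ± 2009), and the neighbours September and May, as well as May and catagen, differed by less than the SD of catagen.

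**Figure D1:**
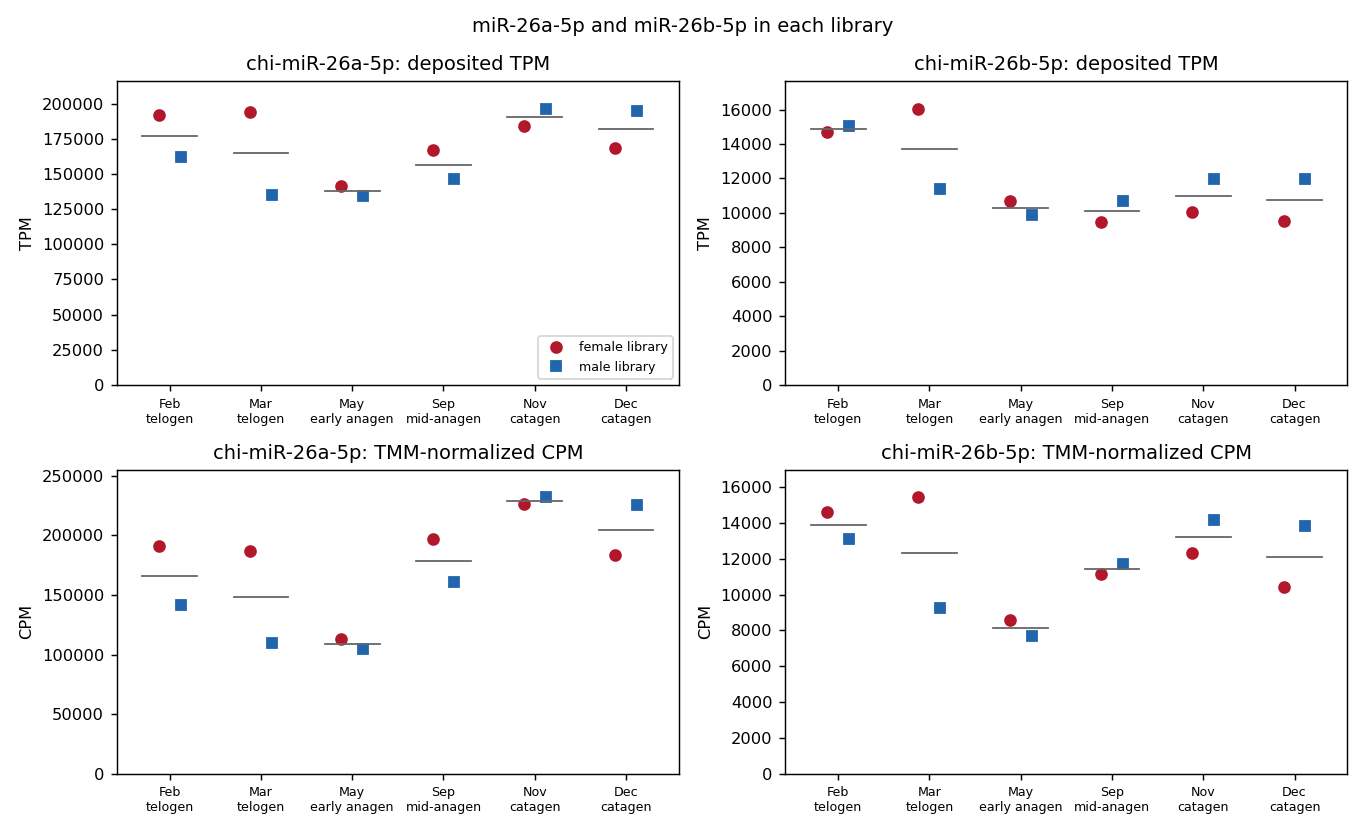
Level of miR-26a-5p (left) and miR-26b-5p (right) in each library by month, as deposited TPM (top) and as TMM-normalized CPM (bottom), with axes from 0. Circles are female and squares male libraries, and lines are the means of each month. The mean TMM-normalized CPM of both miRNAs was lowest in May, whereas in TPM the levels of miR-26b-5p in May, September, November and December overlapped.

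The question whether the miRNAs changed between phases was put to a quasi-likelihood test in edgeR on TMM-scaled counts. TMM rescales each library so that the bulk of its miRNAs is level with a reference library. Of the 4 members 3 were among the 300 miRNAs tested, as miR-26b-3p exceeded 5 CPM in 1 library only. On the TMM scale the level of miR-26a-5p rose from 108700 ± 6191 CPM (SD, n = 2) in May to 178578 ± 25529 (n = 2) in September, a log2 fold change of 0.72 (SE 0.23, adjusted p = 0.0298). It was 0.46 higher on the log2 scale in catagen (216837 ± 22204 CPM, n = 4) than in telogen (157159 ± 38660, n = 4; SE 0.16, adjusted p = 0.0411), with overlapping libraries. It was 0.996 higher in catagen than in May (SE 0.21, adjusted p = 0.00305), a 1.99-fold difference just under the 2-fold limit, and each catagen library lay above both May libraries. It passed that limit, as the only member comparison to do so in these 2 fits, with sex as a block (1.01) and with miR-26a-5p left out of the TMM factors on the same reference (1.02), and also without the female December library (1.07). The change from telogen to May was -0.53 (SE 0.20, adjusted p = 0.117), that from September to catagen 0.28 (SE 0.20, adjusted p = 0.880) and that from telogen to September 0.18 (SE 0.20, adjusted p = 0.506), none of which passed.

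With all 12 libraries in the fit, miR-26b-5p passed the test in a single comparison. Its level rose by 0.64 on the log2 scale from May (8122 ± 635 CPM, n = 2) to catagen (12677 ± 1705, n = 4; SE 0.19, adjusted p = 0.0204), with no overlap between the libraries. Its difference between telogen (13103 ± 2735 CPM, n = 4) and May was -0.69 (SE 0.19, adjusted p = 0.0600) and that from May to September (11445 ± 404 CPM, n = 2) was 0.49 (SE 0.22, adjusted p = 0.100). Catagen minus telogen was -0.05 (SE 0.15, adjusted p = 0.813), September minus telogen -0.20 (SE 0.19, adjusted p = 0.461) and catagen minus September 0.15 (SE 0.19, adjusted p = 0.914). The difference between miR-26a-5p and miR-26b-5p from telogen to catagen is tested below through their ratio.

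In all, 0 of the 18 comparisons of the 3 tested members were called under edgeR's quasi-likelihood test with an adjusted p under 0.05 and a 2-fold change, while 4 had an adjusted p under 0.05 and 10 an unadjusted p under 0.05. DESeq2 also called 0 and gave 4 and 6. Over all 300 miRNAs, adjusted p alone was under 0.05 in 5.33% between telogen and May, 34.0% between May and September, 0.0% between September and catagen, 35.0% between telogen and catagen, 37.0% between May and catagen and 25.3% between telogen and September. With the 2-fold limit these shares were 2.33%, 18.3%, 0.0%, 10.7%, 16.7% and 9.33%. In the comparison of September with catagen 23 miRNAs had an unadjusted p under 0.05, and DESeq2 called 1. A change that passed the test was therefore common in the comparisons in which miR-26a-5p and miR-26b-5p passed. The difference of miR-26a-5p between May and September was lost without either May library (adjusted p = 0.202 and 0.146), the female September library (0.188) or the female March library (0.0623), and that between telogen and catagen was kept in only 3 of 12 fits that left out 1 library (adjusted p up to 0.0984). That of miR-26b-5p between May and catagen was lost without either May library (adjusted p = 0.191 and 0.15), whereas that of miR-26a-5p between May and catagen passed in 12 of 12 (0.85 to 1.07). Leaving out a library also brought comparisons past the threshold. Without the male March library, the change from telogen to May passed for miR-26a-5p (-0.67, adjusted p = 0.0108) and for miR-26b-5p (-0.82, adjusted p = 0.0060), as did that of miR-26b-5p from May to September (0.49, adjusted p = 0.0278). Without the female December library, that of miR-26b-5p from telogen to May passed (-0.69, adjusted p = 0.04985).

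These calls depended on how the libraries were scaled. When only library totals were used for scaling, the median change over the 300 tested miRNAs moved on the log2 scale by -0.52 between May and September, -0.55 between May and catagen and -0.35 between telogen and catagen. The change of miR-26a-5p then was 0.19 from May to September (adjusted p = 0.403), 0.12 from telogen to catagen (adjusted p = 0.416) and 0.43 from May to catagen (adjusted p = 0.0288). For miR-26b-5p, library totals gave -0.39 from telogen to catagen (adjusted p = 0.0265) and -0.50 from telogen to September (adjusted p = 0.0332), both past the threshold, but 0.08 from May to catagen (adjusted p = 0.672).

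A change of scaling adds nearly the same amount to the log2 change of every miRNA in a comparison, so the distance of a miRNA from the median is fixed by construction and is given only as a description. Over 8 scalings (TMM with and without miR-26a-5p, with the March or December female library as reference, RLE size factors, upper-quartile factors, and library totals with and without miR-26a-5p), miR-26a-5p lay 0.90 to 0.91 above the median of the 300 miRNAs, in log2 fold change, between May and catagen. It lay 0.64 to 0.65 above that median between May and September and 0.46 to 0.48 above it between telogen and catagen. miR-26b-5p lay 0.55 to 0.56 above the median between May and catagen, and between telogen and catagen it lay at -0.05 to -0.04 from it.

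**Figure D2:**
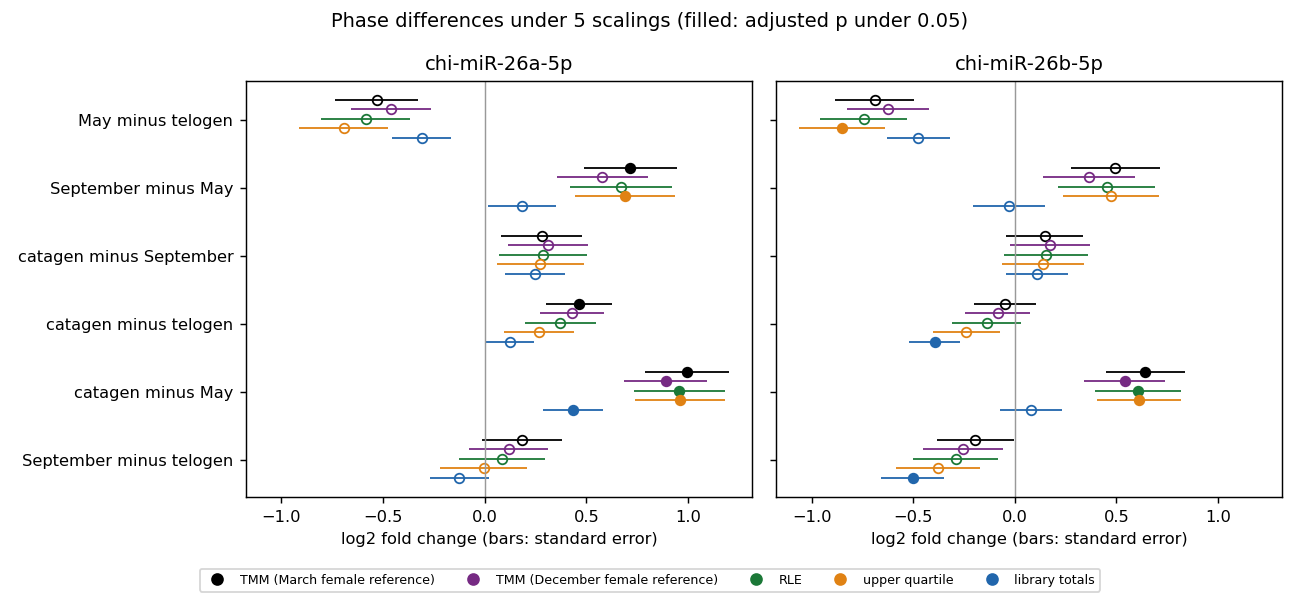
Log2 fold change (x axis) of miR-26a-5p (left) and miR-26b-5p (right) in the 6 comparisons of groups under 5 scalings, given by colour. Bars are standard errors, and filled points have an adjusted p under 0.05. miR-26a-5p had a filled point under all 5 scalings only in catagen minus May, where library totals gave 0.43 and TMM 0.996.

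The ratio of miR-26a-5p to miR-26b-5p counts needs no scaling, because both are counted in the same library. It was 13.1 (female) and 10.8 (male) in February, 12.1 and 11.8 in March, and 13.2 and 13.6 in May. It was 17.6 and 13.7 in September, 18.4 and 16.4 in November, and 17.7 and 16.3 in December. The telogen libraries all lay below the May, September and catagen libraries, and the female September library alone lay within the catagen range. The mean ratio was 11.9 ± 0.930 (SD, n = 4) in telogen, 13.4 ± 0.285 (n = 2) in May, 15.7 ± 2.78 (n = 2) in September and 17.2 ± 0.996 (n = 4) in catagen.

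The 4 groups differed in this log2 ratio (exact permutation test of F over 207900 arrangements, p = 0.00264). Catagen exceeded telogen by 0.53 on the log2 scale, or 1.44-fold, in an exact two-sided permutation test (p = 0.0286), which is the smallest p that 4 against 4 libraries allow. Adjusted over the 6 pairs of groups it was 0.133. The smallest permutation p that the group sizes allow, 0.0286, 0.0667 or 0.333, cannot give an adjusted p under 0.05. The correction therefore could not decide on any single pair. September exceeded telogen by 0.38 and catagen exceeded May by 0.36, each without overlap and each with an exact permutation p of 0.0667, again the smallest possible. May exceeded telogen by 0.17 (exact permutation p = 0.2), September exceeded May by 0.21 (p = 0.333, the smallest that 2 against 2 libraries allow) and catagen exceeded September by 0.14 (p = 0.333). The differences from September rested on which of its libraries was used. Without the female September library, September exceeded telogen by 0.20 and May by 0.03 and lay 0.33 below catagen, whereas without the male September library it exceeded telogen by 0.56 and May by 0.40, and catagen minus September was -0.04. Among the 2 female libraries of each phase the mean ratio was 12.6 in telogen and 18.0 in catagen, and among the male libraries 11.3 and 16.4, so the difference was present within each sex.

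**Figure D3:**
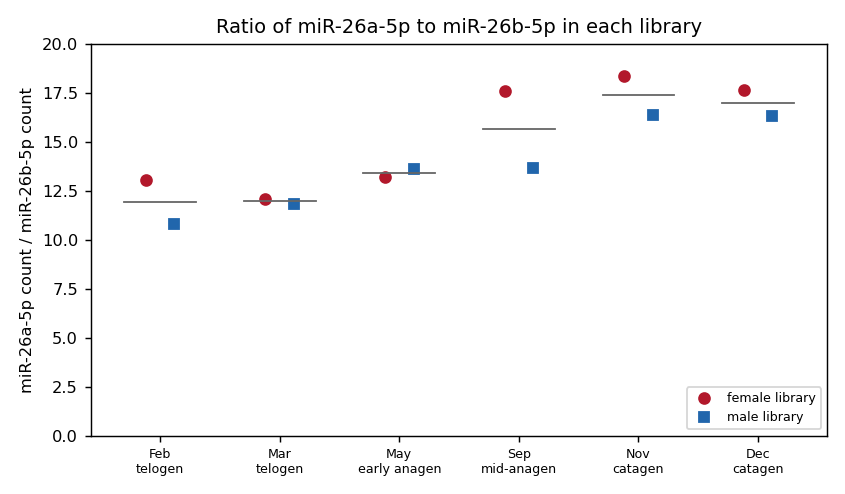
Ratio of the miR-26a-5p count to the miR-26b-5p count (y axis, from 0) in each library by month. Circles are female libraries, squares male libraries and lines the means of each month. The telogen libraries lay between 10.8 and 13.1 and the catagen libraries between 16.3 and 18.4.

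The 3p strands, which are usually degraded when the 5p strand is loaded into Argonaute, were near the limit of detection. miR-26a-3p had 6 to 29 counts per library, a TPM of 1.21 to 6.45, and miR-26b-3p 11 to 24 counts, a TPM of 2.04 to 6.06. Every library thus exceeded the floor of 3 counts, but the 95% Poisson interval of a count of 6 runs from 2.20 to 13.1, and these intervals cover counting error only. The highest levels of miR-26a-3p were those of the female December (6.45 TPM), male September (5.67), female May (5.32) and male May (4.78) libraries, against 1.21 to 2.48 TPM in telogen. Both November libraries (1.74 and 1.55 TPM) lay within the telogen range, and the female September (2.78) and male December (3.10) libraries lay just above it. In edgeR's test its changes on the log2 scale were 1.11 from telogen to May (SE 0.51, adjusted p = 0.165), 1.35 from telogen to September (SE 0.49, adjusted p = 0.0643) and 1.02 from telogen to catagen (SE 0.44, adjusted p = 0.0860), and none passed. Without the female December library, its highest, the change from telogen to September was 1.35 with an adjusted p of 0.0248, while that from telogen to catagen was 0.49 (adjusted p = 0.330). The change from telogen to September was 0.82 without the male September library and 1.74 without the female one (adjusted p = 0.386 and 0.116).

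The 2 arms differed in abundance more for miR-26a than for any of the other 86 precursors tested, whose lower arm averaged at least 10 counts. For miR-26a, the 5p count exceeded the 3p count 25836-fold in the male September library and 158527-fold in the female February library, with a mean log2 ratio of 15.69 after 1 was added to each count. For miR-26b the mean log2 ratio was 11.42, the 5th largest among those tested. Its ratio ran from 1629 in the male May library to 4809 in the female March library. The filter left out precursors with a scarcer lower arm. Among these, miR-21 (15.12), let-7g (14.25), miR-20a (12.02) and miR-103 (-11.94) had mean log2 ratios larger in size than that of miR-26b. If goats make the same 5p strand from a further gene whose 3p strand is not listed, the arm ratio of miR-26a holds its reads too, which was not tested.

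Both arm ratios were lower in May than in telogen. The difference of log2 arm ratios was -1.58 for miR-26a (limma, SE 0.47, adjusted p = 0.0288) and -1.04 for miR-26b (SE 0.30, adjusted p = 0.0278), in a comparison where 11.5% of the 87 precursors passed. For miR-26a the ratio was 1.26 higher in catagen than in May (SE 0.47, adjusted p = 0.0366), where 41.4% passed, and for miR-26b it differed by -0.68 between catagen and telogen (SE 0.25, adjusted p = 0.0333), where 49.4% passed. The miR-26a difference between telogen and September, -1.04 (SE 0.47, adjusted p = 0.0860), and the miR-26b difference between May and September, 0.82 (SE 0.35, adjusted p = 0.0712), did not pass in comparisons with 39.1% and 37.9% passing. Between September and catagen limma passed 0.0% of precursors (5 at an unadjusted p under 0.05). The 4 differences that passed rest on few 3p reads, and each was lost when certain single libraries were left out. The miR-26a difference between telogen and May was lost without either May library (adjusted p = 0.172 and 0.164), the female February library (0.0739) or the female March library (0.0672), and that between May and catagen without either May library or any of 4 others (adjusted p up to 0.174). The miR-26b difference between telogen and May was lost without either May library, the male February library or the female March library (adjusted p up to 0.311), and that between telogen and catagen without the male February, female March, female November or female December library (adjusted p up to 0.0983).

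**Figure D4:**
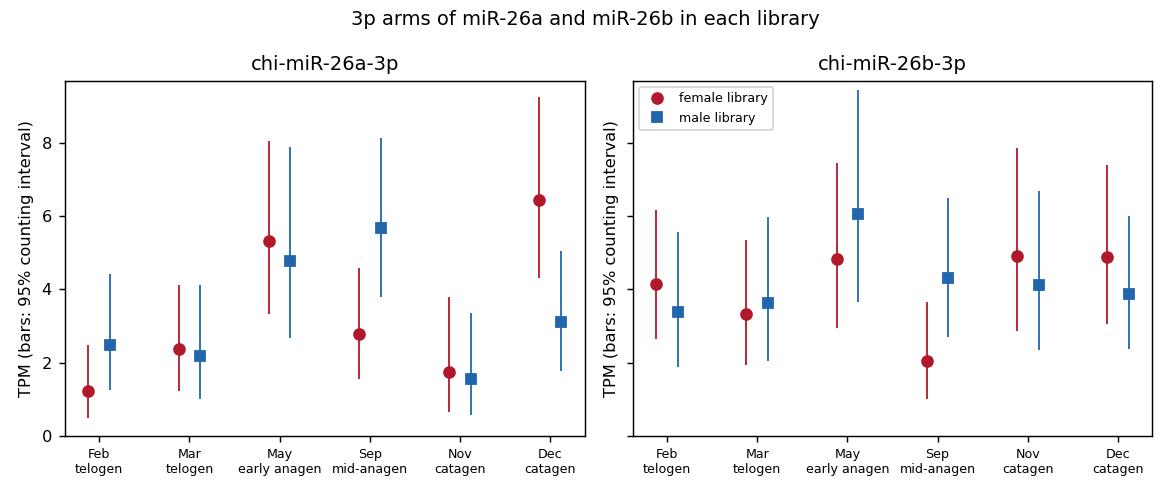
TPM of miR-26a-3p (left) and miR-26b-3p (right) in each library by month, with exact 95% Poisson intervals for counting error as bars. Circles are female and squares male libraries. The levels lay between 1.21 and 6.45 TPM, and the intervals of most libraries overlapped.

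As a single miRNA holding up to 19.6% of counts could bias the scale for all others, its effect on scaling was measured. Leaving miR-26a-5p out of the library totals raised every other TPM by 15.5% in the male May library and by 24.4% in the male November library. Between those extremes the rise differed by 0.11 on the log2 scale, or 1.08-fold, which is all that the share of miR-26a-5p could add to a difference between 2 libraries in TPM. The log2 fold change of the other miRNAs from May to September moved by 0.03 when miR-26a-5p was left out of the totals, and by -0.53 when TMM was replaced by totals. With totals, 80 miRNAs were called between May and September, 9 of them higher in September, and with totals lacking miR-26a-5p 76 were called, 10 of them higher, against 55 with TMM, 29 of them higher.

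TMM itself set miR-26a-5p and miR-26b-5p aside. In each of the 11 comparisons of a library with the reference, the female March library, both were trimmed, and 105 to 110 miRNAs set the factor. With miR-26a-5p removed and the same reference, effective library sizes moved by at most 0.04 on the log2 scale, and 55, 32 and 54 miRNAs were called between May and September, telogen and catagen, and May and catagen, where TMM on the whole table called 55, 32 and 50. Without miR-26a-5p, however, edgeR picked the female December library as reference, and the male May library moved by 0.18. The same shift of 0.18 appeared when that reference was set by hand with miR-26a-5p in the table.

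The choice of reference library thus carried more weight than miR-26a-5p. With each of the 12 libraries as reference in turn, the change of miR-26a-5p between May and catagen lay between 0.84 and 0.996 with an adjusted p under 0.05 in 12 of 12. Between May and September it lay between 0.57 and 0.72 and passed in 3 of 12, and between telogen and catagen between 0.31 and 0.46 and passed in 2 of 12. The change of miR-26b-5p between May and catagen lay between 0.49 and 0.64 and passed in 4 of 12. The female March library, which edgeR picked, gave the highest value in each of these 4 ranges.

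**Figure D5:**
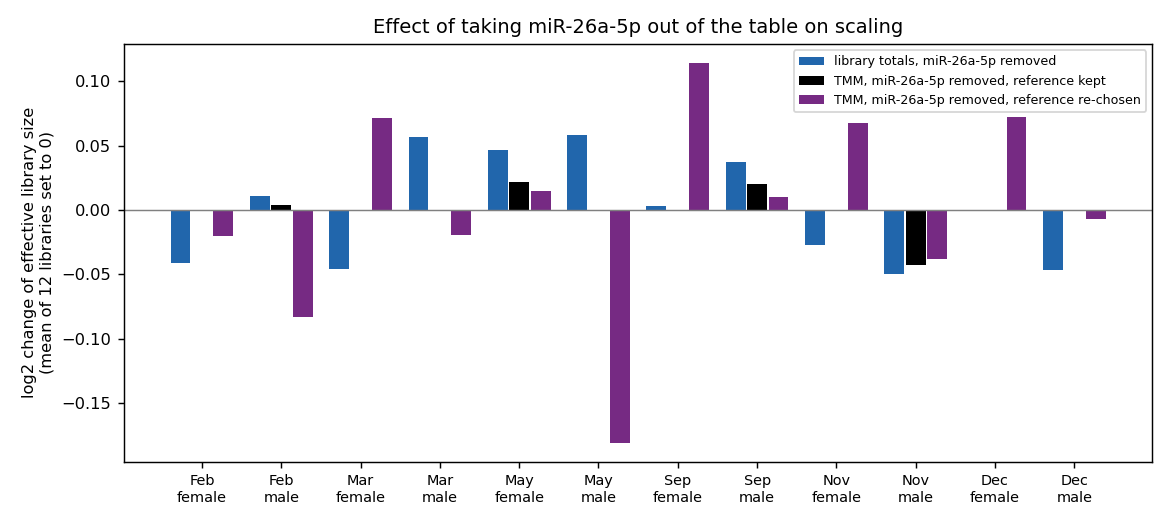
Log2 change of the effective size of each library when miR-26a-5p is taken out of the table (y axis, mean of the 12 libraries set to 0), for library totals, for TMM with the female March library kept as reference, and for TMM with the reference chosen anew. The change with the reference kept was at most 0.04, and with the reference chosen anew it reached 0.18 in the male May library.

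Between adjacent months, in a fit with 6 groups of 2 libraries, miR-26a-5p passed only from May to September (0.72, SE 0.24, adjusted p = 0.0430), a step at which 30.7% of the 300 miRNAs passed. From February to March its change was -0.17 (SE 0.24, adjusted p = 0.987), from March to May -0.45 (SE 0.24, adjusted p = 0.353), from September to November 0.36 (SE 0.24, adjusted p = 0.976), and from November to December -0.16 (SE 0.24, adjusted p = 0.981). In these 4 steps edgeR passed 0.0% of miRNAs, with 15, 52, 13 and 10 at an unadjusted p under 0.05, and from December to February, where miR-26a-5p changed by -0.30 (SE 0.24, adjusted p = 0.494), 2.67% passed. For miR-26b-5p and miR-26a-3p no step passed, and the largest change was that of miR-26a-3p from December to February, -1.65 (SE 0.51, adjusted p = 0.0969).

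Female and male libraries, compared with month as a term, differed in none of the tested members, nor did any other miRNA pass in edgeR (0.0%, with 34 at an unadjusted p under 0.05). Male minus female was -0.21 for miR-26a-5p (SE 0.13, adjusted p = 0.543), -0.06 for miR-26b-5p (SE 0.14, adjusted p = 0.901) and -0.01 for miR-26a-3p (SE 0.31, adjusted p = 0.983). The ratio of miR-26a-5p to miR-26b-5p was higher in the female library in 5 of 6 months, by 0.15 on the log2 scale on average (exact permutation test of paired months, two-sided, p = 0.0938).

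The miRNAs whose levels ran most like those of the 5p strands were sought by Pearson's r of log2 TMM-normalized CPM over the 12 libraries, among 297 tested miRNAs outside the group. For miR-26a-5p these were miR-23b-3p (r = 0.93), miR-3431-3p (r = 0.93) and miR-708-3p (r = 0.92), and the most opposed were miR-494 (r = -0.96), miR-369-3p (r = -0.95) and miR-411b-5p (r = -0.92). For miR-26b-5p they were miR-29b-3p (r = 0.94), miR-130a-5p (r = 0.90) and miR-7-3p (r = 0.82), and the most opposed were miR-25-5p (r = -0.87), miR-17-5p (r = -0.86) and miR-409-5p (r = -0.84). The 3 miRNAs nearest to either strand were thus different ones. In TPM, r was 0.73 to 0.76 for the 3 nearest to miR-26a-5p and -0.88 to -0.77 for the 3 most opposed. For miR-26b-5p it was 0.78 to 0.86 for the 3 nearest, but only -0.40 for miR-25-5p, -0.16 for miR-17-5p and -0.32 for miR-409-5p. The level of miR-7-3p was low, at 2.23 to 5.48 TMM-normalized CPM. The 2 strands themselves correlated at r = 0.79 in TMM-normalized CPM but at 0.44 in TPM, and all these values share the scaling factor of each library, so they are given as a description.

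Other miRNAs known to repress EZH2 were set beside miR-26 as a list, and of 3 such miRNAs miR-101-3p and miR-214-3p were listed. Between telogen and catagen 1 of the 2 fell and none rose, in a comparison in which 35.0% of all miRNAs passed, so the count does not set the list apart. The median change was -0.50 on the log2 scale, where the median of all 300 miRNAs was 0.00. The one that fell was miR-214-3p, from 59.9 ± 6.84 TMM-normalized CPM (SD, n = 4) in telogen to 35.4 ± 0.573 (n = 4) in catagen (-0.76, SE 0.13, adjusted p = 0.00163), and its TPM, which is not scaled by TMM, was 65.7 ± 2.72 and 30.4 ± 1.59. The more abundant miR-101-3p had 4393 ± 2433 TMM-normalized CPM in telogen and 3723 ± 1117 in catagen and did not pass (-0.24, SE 0.34, adjusted p = 0.586).

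miR-214-3p also fell from telogen to May (-0.70, SE 0.17, adjusted p = 0.0341), where 5.33% of all miRNAs passed, and rose from May to September on the TMM scale (0.53, SE 0.19, adjusted p = 0.0480), where 34.0% passed, although its TPM was 46.6 in May and 46.8 in September. miR-101-3p passed in none of the 6 comparisons. Neither passed between September and catagen, telogen and September, or May and catagen. Over the comparisons other than telogen with catagen the medians of the list lay between -0.85 and 0.46.

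Lists of cell type markers were read beside these values, as SHFs were cut out by hand and bulk RNA cannot tell fewer cells of a type from less RNA per cell. The epidermal list, miR-203 and the miR-200 family (6 of 7 listed), had a summed TPM of 56735 to 96687. The mesenchymal list, miR-143-3p, miR-145-5p, miR-199a-3p, miR-199a-5p and miR-214-3p (5 of 5), had 109737 to 139125. Most of it was miR-143-3p, with group means of 69880 to 109324 TPM, while miR-214-3p had 30.4 to 65.7. By in situ hybridization the study placed miR-143-3p in the hair matrix and miR-203 in the hair shaft. These 2 are thus found in the follicle itself and need not mark other cells. The endothelial miR-126 strands summed to 8819 to 12699 TPM and the muscle markers (5 of 5 listed) to 1898 to 3607. The sums of these 4 lists overlapped between telogen and catagen, but members of 2 of them moved apart. In this comparison 35.0% of all 300 miRNAs passed, so such calls were common. Of the mesenchymal markers miR-143-3p and miR-145-5p rose on the TMM scale (by 0.55 and 0.85, adjusted p = 0.00873 and 0.00613) and miR-199a-3p and miR-214-3p fell (-0.55 and -0.76, adjusted p = 0.00873 and 0.00163), and of the epidermal markers miR-203 rose (0.57, adjusted p = 0.0124) and miR-141 fell (-0.91, adjusted p = 0.00803). No endothelial or muscle marker passed between these phases.

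Leukocyte markers (4 of 6 listed) summed to 1056 to 1753 TPM in telogen and to 694 to 888 in catagen, without overlap. Of the 4, miR-146a (-1.04, adjusted p = 0.00755) and miR-223-3p (-1.36, adjusted p = 0.00722) fell, where 35.0% of all 300 miRNAs passed. The other members, miR-155-5p and miR-150, did not pass (0.38 and 0.05, adjusted p = 0.0981 and 0.884). The most abundant, miR-146a, had a mean of 854 TPM in telogen and 332 in catagen. Erythrocyte markers (2 of 4 listed, miR-451-5p and miR-144-5p) summed to 27.9 to 115 TPM in telogen and to 5.41 to 26.4 in catagen, also without overlap. Of these, miR-451-5p fell (-1.45, adjusted p = 0.0476) and miR-144-5p did not pass (-1.56, adjusted p = 0.0552). How many of all miRNAs had no overlap between these phases was not counted. The sums of both blood lists were thus lower in catagen, where the ratio of miR-26a-5p to miR-26b-5p was higher. For miR-26a-5p the change was 0.46 on the TMM scale. With library totals, the scale of these sums, it was 0.12 (edgeR, adjusted p = 0.416). The median change of all 300 miRNAs on that scale was -0.35.

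Between May and September, where miR-26a-5p rose on the TMM scale, the summed TPM of 4 lists did not overlap, but the single markers of a list did not all move with its sum. With 2 against 2 libraries the smallest p of an exact permutation test is 0.333, so this separation cannot tell a change from chance. In the test of single miRNAs, 34.0% of all 300 passed in this comparison. With library totals, the scale of these sums, the median change of the 300 was -0.46 on the log2 scale. The leukocyte sum was lower in September (792 to 1123 TPM against 1300 to 1412), as was its most abundant member miR-146a (467 against 938 TPM). On the TMM scale miR-146a did not pass (-0.49, adjusted p = 0.309), the median of the 4 was 0.62 and miR-155-5p rose (0.90, adjusted p = 0.0134). The epidermal sum was lower (56735 to 72600 against 81375 to 88411), as was its most abundant member miR-203 (51907 against 69281 TPM). On the TMM scale miR-203 did not pass (0.10, adjusted p = 0.740), the median of the 6 was 0.21 and miR-200a rose (1.43, adjusted p = 0.00131). The mesenchymal sum was higher (132386 to 132512 against 118956 to 121899), with miR-143-3p and miR-214-3p risen (1.17 and 0.53, adjusted p = 0.00131 and 0.0480) and miR-199a-3p and miR-199a-5p fallen (-0.85 and -0.79, adjusted p = 0.00677 and 0.0059). The muscle sum was higher (3387 to 3458 against 2108 to 2737), and miR-1, its most abundant member, rose (1.19, adjusted p = 0.0146), while the median of the 4 tested was -0.18. Of the endothelial strands miR-126-3p rose (0.63, adjusted p = 0.0451). The part of these markers in the miR-26 differences was not tested.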

How the data were processed

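Small RNA of 12 SHF libraries was measured by sequencing. After adapter trimming, the authors aligned reads to the CHIR_2.0 genome and quantified miRNAs with Bowtie 0.12.9, which the submitters' processing notes also name. They deposited, per miRNA and library, an unnormalized count and a TPM. The TPM departs from the count scaled by its library's total by at most 0.005 and is therefore not corrected for composition.

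Counts were analysed with edgeR 4.0.16 in R 4.3.3 (TMM, glmQLFit, glmQLFTest) in 1 fit of 4 groups, for 300 miRNAs with more than 5 CPM in at least 2 libraries. A call needs an adjusted p (Benjamini-Hochberg over all tested miRNAs) under 0.05 and 2-fold; "passed" means the adjusted p alone. SE is the log2 fold change over the square root of F. Exact permutation tests went through all arrangements, and that of 2 groups was checked against scipy 1.17.1. Arm ratios (1 added to each count, mean of the lower arm at least 10) used limma 3.58.1 over 87 precursors. Tests were tested on simulated data, except the exact permutation tests of F over the 4 groups and of paired months. Depth was 3135292 to 5788032 counts. Libraries of one month differed by 65.2 to 635 times the chi-square expected from sampling, so none was taken as deposited again. P-values measure only the spread between these libraries.

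The members, the lists and the tests were chosen with earlier results of these data known. Named outside the group were the next most abundant miRNA of each library, the 3 most and least correlated with each 5p strand, and the EZH2, erythrocyte, leukocyte, muscle, endothelium, epidermis and mesenchyme lists. Alternatives were DESeq2 1.42.0, other scalings, filters, pseudocounts and models, and each library left out. The same TMM reference without miR-26a-5p, other TMM references, and the sex interaction were added after seeing the data. Mature sequences were not used here, and a further list of miRNAs is not reported here.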

Additional observations from a re-analysis of the deposited data

Results flagged for a closer look

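Male and female libraries stood in opposite order in telogen and in catagen. For miR-26a-5p the female TPM exceeded the male in February and March (by 0.24 and 0.52 on the log2 scale) and the male exceeded the female in November and December (female minus male -0.09 and -0.21), so every pair of a phase moved one way and every pair of the other phase the opposite way. The male minus female difference was 0.74 larger in catagen than in telogen with TMM (edgeR interaction term, SE 0.24, unadjusted p = 0.0111, adjusted p = 0.129), where 4 of 300 miRNAs passed, and 0.53 larger with library totals (SE 0.20, adjusted p = 0.143). For miR-26b-5p with TMM it was 0.72 (SE 0.26, adjusted p = 0.163). None of the 3 passed the correction, and with 2 pairs a phase the test was chosen after the pattern was seen. Each month has 1 library of a sex, so within a month sex and library cannot be told apart.

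The female December library stood apart from the other 3 catagen libraries in TMM-normalized CPM of miR-26a-5p, at 183810 against 225413 to 231870. Its gap to the nearest was 0.866 of the group's range, above Dixon's 95% value for 4 samples. It was the 1 gap of this kind in 22 groups and measures examined, and chance gives about 1 in 20. The same library had the highest miR-26a-3p level, 6.45 TPM.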

How the results depend on the processing

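Of the alternatives tried for the 33 quantities compared, 512 of 597 values kept the direction and the side of the threshold. This count includes the pairwise tests of the 5p ratio, whose side was fixed, as they could not give an adjusted p under 0.05. Among results that had passed, miR-26a-5p fell short in 19 of 24 alternatives between telogen and catagen and in 10 between May and September. Between May and catagen miR-26b-5p fell short in 6, and the 4 arm differences that passed did so in 5 to 7 each. The value of miR-26a-5p between May and catagen passed under all 24 alternatives (0.43 to 1.07), and the ratio of miR-26a-5p to miR-26b-5p differed over the 4 groups with exact permutation p of 0.00104 to 0.0107 with each library left out. May and September have 2 libraries each, and the 3p strands at most 29 counts, which limits their differences. Adding a pseudocount to the ratio changed no call, and no paired analysis was possible because the labels give the groups no shared replicate numbers, other than sex, which was used as a block. DESeq2 gave no adjusted p for miR-26a-3p between telogen and May, which was left out.

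With library totals, the log2 change of miR-26a-5p was 0.19 from May to September, 0.12 from telogen to catagen and -0.13 from telogen to September (reversed), and with totals lacking miR-26a-5p it was 0.22, 0.14 and -0.16. For miR-26b-5p, totals gave -0.029 from May to September (reversed), -0.50 from telogen to September, 0.080 from May to catagen and -0.39 from telogen to catagen, and totals lacking miR-26a-5p gave -0.53, 0.17 (0.165) and -0.37 for the last 3. The change of miR-26a-3p from May to September reversed to -0.27 (-0.265) and -0.24, and male minus female became 0.067 for miR-26a-3p and 0.031 for miR-26b-5p with totals. These follow from the shift of all miRNAs under totals. For the following values the cause was not tested. miR-26a-5p lost its call between May and September with RLE factors (0.67), no filter (0.67), TMM without miR-26a-5p (0.57) and the December reference (0.58), and between telogen and catagen with DESeq2 (0.37), RLE factors (0.37), upper-quartile factors (0.27), TMM without miR-26a-5p (0.44), the December reference (0.43), a filter of 50 CPM (0.37), no filter (0.41) and a fit of these groups only (0.43). With upper-quartile factors its change from telogen to September was -0.0057 (reversed). miR-26b-5p passed between telogen and May with DESeq2 (-0.74), sex as a block (-0.69) and upper-quartile factors (-0.85), and between May and September in a fit of these groups only (0.40), and lost its call between May and catagen with a filter of 50 CPM (0.45) and no filter (0.57). With no minimum of the lower arm, more precursors were tested and the arm differences of unchanged size lost their calls (miR-26a -1.58 and 1.26, miR-26b -1.04 and -0.68), and in a fit of these groups only miR-26a passed between telogen and September (-1.04). The log2 ratio of miR-26a-5p to miR-26b-5p rose from May to catagen by 0.45 among female and 0.27 among male libraries.

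With each library left out in turn, the log2 change of miR-26a-5p ranged from -0.67 to -0.40 (telogen to May), 0.54 to 0.86 (May to September) and 0.33 to 0.57 (telogen to catagen). That of miR-26b-5p ranged from -0.82 to -0.57 (telogen to May), 0.35 to 0.53 (May to September), 0.52 to 0.73 (May to catagen) and -0.18 to 0.036 (telogen to catagen). That of miR-26a-3p ranged from -0.29 to 0.63 (May to September), -0.62 to 0.12 (May to catagen) and -0.87 to 0.20 (September to catagen). The log2 ratio of the 5p strands changed by -0.039 to 0.33 from September to catagen, negative without the male September library. The arm ratio of miR-26a ranged from -1.73 to -1.29 (telogen to May), -0.049 to 1.12 (May to September), -1.63 to -0.45 (telogen to September), 0.99 to 1.69 (May to catagen) and -0.59 to 0.12 (telogen to catagen), and that of miR-26b from -1.26 to -0.82, 0.40 to 1.24, -0.64 to 0.20 and, from telogen to catagen, -0.79 to -0.58.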
